A study of Homo sapiens with 6 samples.

Results

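The 10 genes described here act in blood vessel growth and were measured in HSC3 cells, a human squamous cell carcinoma line from the tongue. They are the ligands VEGFA, VEGFC and FGF2, the VEGF co-receptor NRP1, the secreted proteoglycan ESM1, and the receptor EPHA2 with its ligand EFNA1. The others are the secreted factor ANGPTL4, the enzyme TYMP and the inhibitor THBS1. The rule takes every probe annotated to these gene names and uses no measured value, but the names were proposed with earlier results of these data known. They are 10 of the 18757 genes with a named probe on the array, and their 14 probes are 14 of the 53103 gene probes kept. The study asked what HSC3 cells express after knockdown of members of the MIA gene family and of LEMD1, a cancer-testis antigen with a LEM domain. There were 6 one-colour arrays, 1 each for cells labelled control and for cells given siRNA against LEMD1, MIA, MIA2, TANGO or MATE2. All groups shared the HSC3 line and differed in the siRNA. The control cells received a control siRNA by the series design and were left untreated by the array methods, and these accounts were not reconciled. Each condition had 1 array, so ratios carry no error and no test was made, and precision is limited by the number of arrays.

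Growing vessels sprout when endothelial cells receive ligands from the tissue around them. VEGFA is the main such ligand and acts through the kinases FLT1 and KDR with NRP1 as co-receptor, VEGFC drives lymphatic vessels through FLT4, and FGF2 acts through FGF receptors with heparan sulphate. ESM1, also called endocan, is best known as a product of activated endothelial cells and of some tumours. EPHA2 is a receptor tyrosine kinase that is bound by EFNA1 on neighbouring cells, ANGPTL4 is a lipase inhibitor induced by hypoxia and fatty acids, TYMP (thymidine phosphorylase) breaks down thymidine, and THBS1 (thrombospondin 1) restrains endothelial cells through CD36 and CD47.

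The signal used is the brightness of a spot above its local background, quantile normalized over the 6 arrays. The scanner software flags each spot as good or as near background, and a ratio was taken only where the spot was good on both arrays. Where 1 of the 2 spots was near background only a bound was given, set against the higher of that spot's own signal and the lowest signal of a good spot on its array. A gene was called lower or higher where its signal differed by 2-fold or more, or 1 on the log2 scale. Between 27545 spots (array labelled MIA2 siRNA) and 30628 spots (array labelled LEMD1 siRNA) were good, and the lowest good signal on an array was 27.46 to 38.63. Of 14 squamous epithelial markers 12 had a probe, and 11 or 12 of them were good on each array, with a summed signal of 15785.0 to 42599.1. Of 10 endothelial markers 3 to 6 were good on each array, with a summed signal of 607.9 to 922.4, and CDH5, ROBO4 and TIE1 were near background on all 6. The fibroblast markers COL3A1, DCN and POSTN and the leukocyte markers PTPRC, LYZ and CD4 were near background on all 6 as well.

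The genes targeted by the siRNAs did not follow every label. LEMD1 had a signal of 277.9 on control. It was at least 10.1-fold lower, near background, on the array labelled LEMD1 siRNA, but also at least 6.57-fold lower, near background, on that labelled MIA2 siRNA. It was higher on the TANGO siRNA array, at 3192.1 (11.5-fold), and on the MATE2 siRNA array, at 1011.4 (3.64-fold). MIA2 itself was 155.3 on control and 168.7 on the array labelled MIA2 siRNA, where it was not lower. SLC47A2, for which RefSeq lists the synonym MATE2, was 1509.8 on control, 58.95 on the array labelled TANGO siRNA and 79.61 on that labelled MATE2 siRNA. MIA was near background on all 6 arrays, and RefSeq lists TANGO as a synonym of both MIA3 and ARNT. The arrays are therefore named below only by their labels.

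The promoter sequences of members that were called lower or higher are shown first, so that the letters near their start can be read beside the values. Each is the 250 bases before the gene's start in RefSeq on GRCh38.p14, read 5′ to 3′ on the gene's strand. Capitals mark matches, on either strand, to 6 motifs. The letters searched for AP-1 were TGANTCA, those for ETS factors were CCGGAA and those for the hypoxia-inducible factor HIF were ACGTG. The letters for TEAD factors were GGAATG, the GC box was read as GGGCGG and the TATA box as TATAAA. A match is a description of letters and not a site. A window was found for 8 of the 10 genes. VEGFA and NRP1 had none.

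ESM1 (chr5:54985594-54985843, minus strand): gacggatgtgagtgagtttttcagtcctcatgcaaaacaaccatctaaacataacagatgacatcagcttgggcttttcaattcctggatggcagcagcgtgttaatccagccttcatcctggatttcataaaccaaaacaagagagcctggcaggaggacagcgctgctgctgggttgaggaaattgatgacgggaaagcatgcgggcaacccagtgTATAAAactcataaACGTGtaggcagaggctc
EPHA2 (chr1:16156070-16156319, minus strand): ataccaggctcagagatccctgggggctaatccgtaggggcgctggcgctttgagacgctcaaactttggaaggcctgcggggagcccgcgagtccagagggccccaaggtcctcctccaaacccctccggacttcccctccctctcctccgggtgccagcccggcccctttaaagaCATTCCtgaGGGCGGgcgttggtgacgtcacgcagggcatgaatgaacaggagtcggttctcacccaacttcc
EFNA1 (chr1:155127626-155127875, plus strand): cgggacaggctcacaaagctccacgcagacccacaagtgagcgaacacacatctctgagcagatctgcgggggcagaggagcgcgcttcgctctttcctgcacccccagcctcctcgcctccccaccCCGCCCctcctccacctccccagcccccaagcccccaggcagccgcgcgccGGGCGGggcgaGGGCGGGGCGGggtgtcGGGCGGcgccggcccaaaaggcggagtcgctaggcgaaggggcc
THBS1 (chr15:39580829-39581078, plus strand): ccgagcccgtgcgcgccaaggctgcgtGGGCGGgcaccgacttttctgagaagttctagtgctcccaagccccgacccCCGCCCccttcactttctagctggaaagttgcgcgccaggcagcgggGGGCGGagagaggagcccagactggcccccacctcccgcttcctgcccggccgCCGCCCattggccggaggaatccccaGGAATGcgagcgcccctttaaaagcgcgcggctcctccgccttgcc

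The ESM1 window held a TATA box whose first base lies 32 bases before the start and a HIF match at 18 bases, and no GC box. The EPHA2 window held a TEAD match 73 bases and a GC box 64 bases before the start. The EFNA1 window held 5 GC boxes, 2 of them overlapping in the run of capitals, and none of the other letters searched. The THBS1 window held 4 GC boxes and a TEAD match at 46 bases. Of all 35116 windows of this length, 42.6% held the GC box, 18.5% the HIF letters, 14.5% the ETS letters, 11.9% the TEAD letters, 10.7% the TATA box and 6.57% the AP-1 letters. No window of these genes held the AP-1 letters.

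Counted over the 10 genes, the array labelled MIA siRNA stood closest to control. There 8 members were measured on both arrays and 0 were called lower and 0 higher, beside 0.258% and 0.391% of all 12773 genes compared. On the array labelled MIA2 siRNA 3 of 7 were lower (ESM1, EPHA2 and THBS1) and 0 higher, beside 5.21% and 3.29% of 12451 genes. On TANGO siRNA 2 of 7 were lower (ESM1 and EPHA2) and 2 higher (VEGFA and EFNA1), beside 9.09% and 5.57% of 12524 genes.

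On the array labelled MATE2 siRNA 1 of 8 was lower (ESM1) and 1 higher (VEGFA), beside 11.7% and 5.95% of 12558 genes, so the share of members was close to the background. On LEMD1 siRNA 2 of 7 were lower (ESM1 and EPHA2) and 0 higher, beside 3.98% and 2.03% of 12924 genes. With so few members each count turns on 1 gene, and the bounds of TYMP on LEMD1 siRNA and THBS1 on TANGO siRNA stand outside these counts. The median log2 ratio of the measured members was -0.01, -0.50, 0.27, -0.43 and -0.67 on MIA, MIA2, TANGO, MATE2 and LEMD1 siRNA, and that of all genes -0.04, -0.01, -0.03, -0.03 and -0.02.

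**Figure D1:**
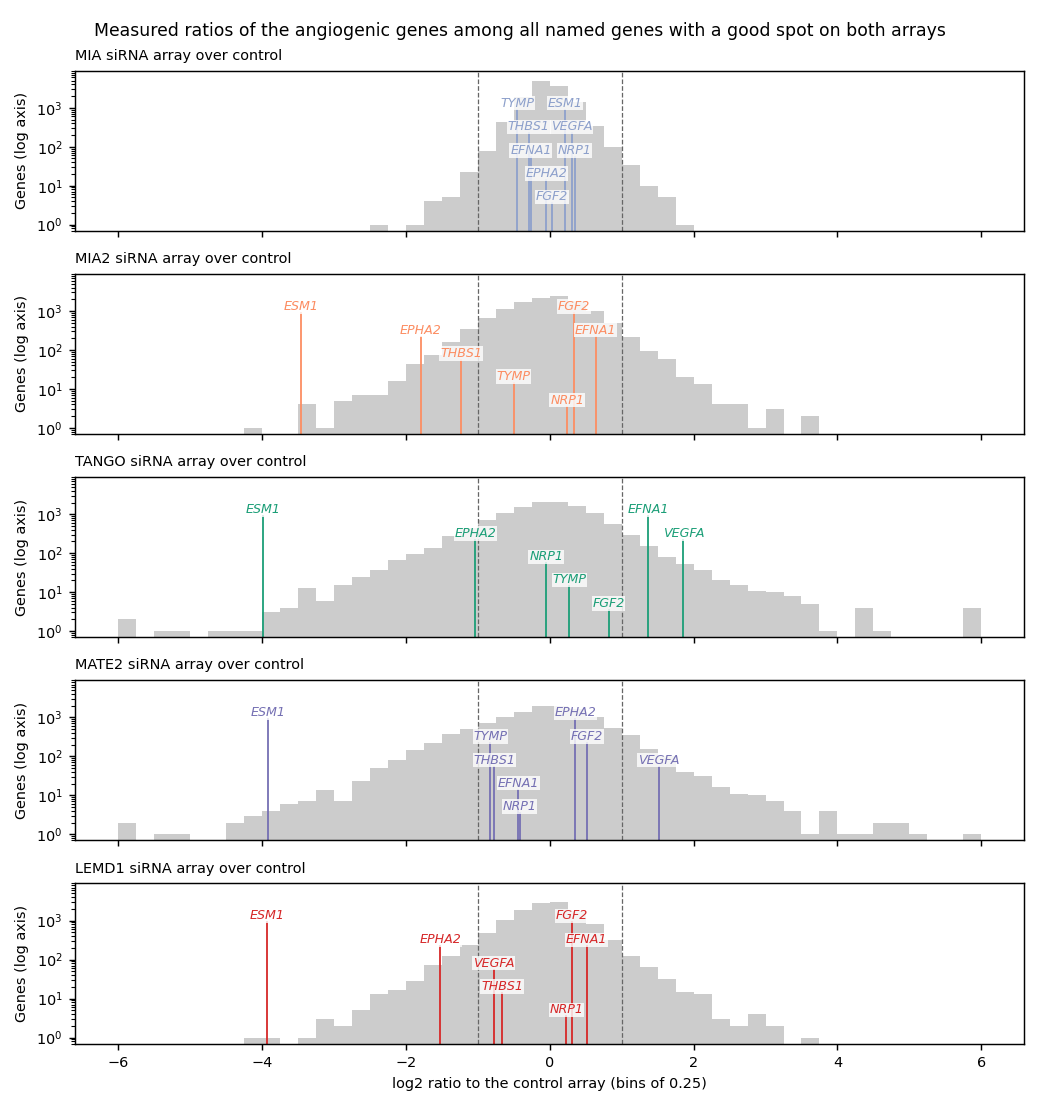
Histograms of the log2 ratio to control over all named genes measured on both arrays (grey, bins of 0.25, log axis of gene number), 1 panel per siRNA array, with the measured members as coloured lines whose height has no meaning. Dashed lines mark 2-fold. ESM1 lies near the low end on the arrays labelled MIA2, TANGO, MATE2 and LEMD1 siRNA, and all 8 measured members lie inside the dashed lines on MIA siRNA.

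ESM1, the endocan gene, was low on 4 of the 5 siRNA arrays and was the member with the widest range. Its signal was 742.5 on the control array, 861.6 on the array labelled MIA siRNA, 67.63 on MIA2 siRNA, 46.80 on TANGO siRNA, 49.11 on MATE2 siRNA and 48.54 on LEMD1 siRNA, with a good spot on all 6. The control and MIA siRNA arrays were high and the other 4 were low, with no value between. Against control ESM1 was 10.98-fold lower on the array labelled MIA2 siRNA, 15.9-fold on TANGO siRNA, 15.1-fold on MATE2 siRNA and 15.3-fold on LEMD1 siRNA, log2 ratios of -3.46, -3.99, -3.92 and -3.94. On the array labelled MIA siRNA the log2 ratio was 0.21.

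Among all genes compared, ESM1 lay at the low end of each of these 4 arrays. Counted from the lowest log2 ratio it was 4th of 12451 genes on the array labelled MIA2 siRNA, 8th of 12524 on TANGO siRNA, 11th of 12558 on MATE2 siRNA and 2nd of 12924 on LEMD1 siRNA. Genes that fell to near background have only a bound and no rank, such as SRPX2 on MATE2 siRNA (lower by at least 44.9-fold). All 4 comparisons share the 1 control array. With the median of the 4 other siRNA arrays in its place the log2 ratio of ESM1 was 0.47 on MIA2 siRNA, -0.30 on TANGO siRNA, -0.22 on MATE2 siRNA and -0.25 on LEMD1 siRNA, since 3 of the 4 arrays in that median were low too. With the MIA siRNA array in place of control all 4 calls stood.

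**Figure D2:**
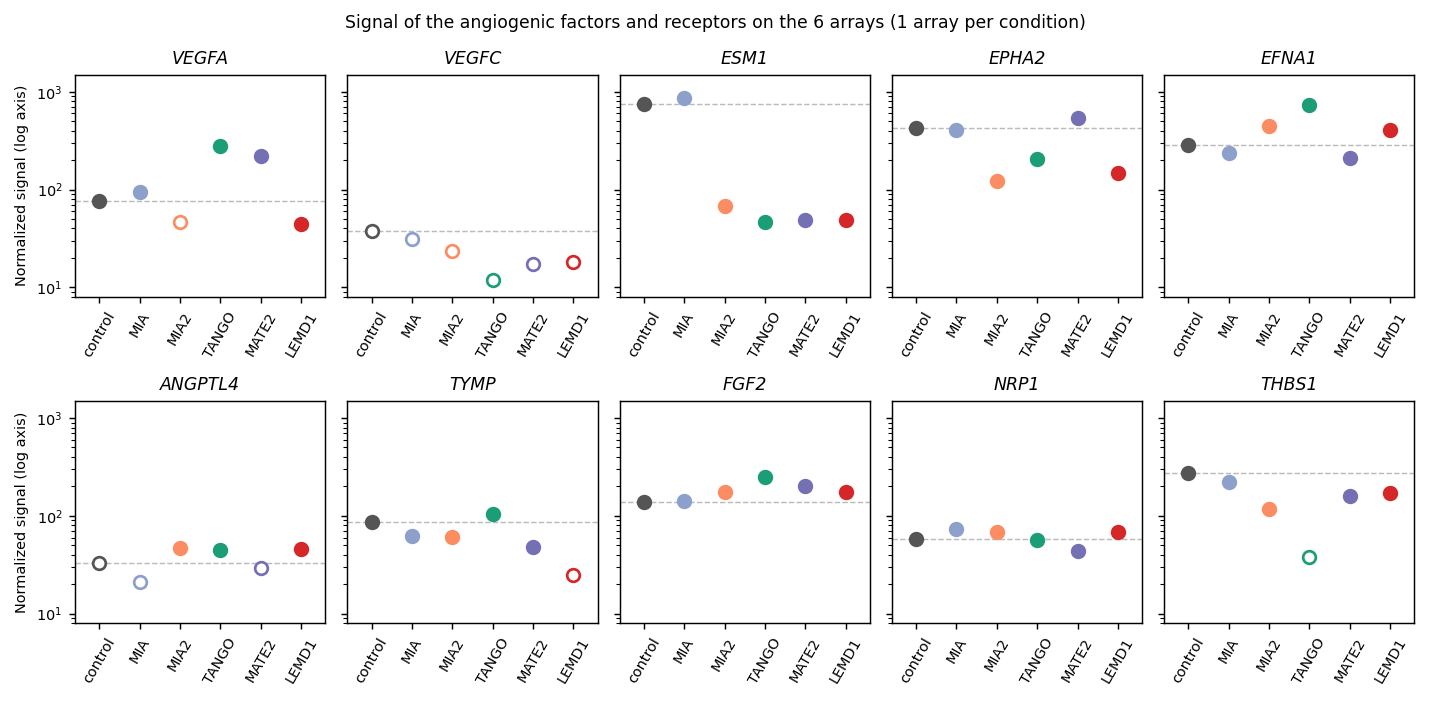
Normalized signal (log axis) of the 10 genes on the 6 arrays, 1 point per array, from the probe with the highest mean signal of each gene. Filled points are good spots, open points are spots near background, and the dashed line is the control array. ESM1 lies at 742.5 and 861.6 on the control and MIA siRNA arrays and between 46.80 and 67.63 on the other 4, and VEGFC is near background on all 6.

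The receptor EPHA2 was lower on the arrays labelled MIA2 siRNA, LEMD1 siRNA and TANGO siRNA. Its signal was 421.7 on control, 408.2 on MIA siRNA, 121.3 on MIA2 siRNA, 205.5 on TANGO siRNA, 538.1 on MATE2 siRNA and 146.5 on LEMD1 siRNA. It was lowest on MIA2 siRNA and LEMD1 siRNA and highest on MATE2 siRNA. The fall was 3.48-fold on MIA2 siRNA, 2.88-fold on LEMD1 siRNA and 2.05-fold on TANGO siRNA, with log2 ratios of -1.80, -1.53 and -1.04. The call on TANGO siRNA lay just past 2-fold and was lost, at log2 ratios of -0.86 to -0.99, with normexp, with no background correction, with 50 added to the signal or with the MIA siRNA array in place of control. With the median of the 4 other siRNA arrays in place of control it was -0.25 on TANGO siRNA and -0.98 on LEMD1 siRNA, which ended both calls. On MATE2 siRNA the log2 ratio was 0.35 and on MIA siRNA -0.05, and EPHA2 was 2.62-fold lower on TANGO siRNA than on MATE2 siRNA.

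EFNA1, the ephrin that binds EPHA2, was higher by the rule on the array labelled TANGO siRNA alone of the 5. Its signal was 285.8 on control, 238.0 on MIA siRNA, 444.9 on MIA2 siRNA, 736.1 on TANGO siRNA, 210.5 on MATE2 siRNA and 407.1 on LEMD1 siRNA. The 3 arrays on which EPHA2 was called lower were the 3 on which EFNA1 lay above control. The log2 ratio was 1.36 on TANGO siRNA (2.58-fold), 0.64 on MIA2 siRNA and 0.51 on LEMD1 siRNA, against -0.26 on MIA siRNA and -0.44 on MATE2 siRNA. TANGO siRNA and MATE2 siRNA differed 3.497-fold in EFNA1, the widest gap between these arrays among the members measured on both.

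Of 20 other ephrins and Eph receptors, 13 were measured on both arrays in each comparison. On MIA2 siRNA 1 was lower (beside 5.21% of all genes), on TANGO siRNA 1 was lower and 1 higher (9.09% and 5.57%), and on MATE2 siRNA 1 was lower (11.7%). EFNA2, EFNA3, EFNA4 and EFNA5, the other A-type ephrins listed, stayed within 2-fold of control on every array, with log2 ratios of -0.17 to 0.71. EPHB2, a receptor of B-type ephrins, was 2.04-fold lower on TANGO siRNA and 2.67-fold lower on MATE2 siRNA. EPHB4, the venous receptor of EFNB2, was 2.83-fold higher on TANGO siRNA, at 590.1 against 208.6 on control. EPHB1 was 2.23-fold lower on MIA2 siRNA. EPHA4 was near background on control and good at 151.8 on TANGO siRNA and 87.01 on MATE2 siRNA, at least 4.43-fold and 2.54-fold higher.

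VEGFA, the main angiogenic ligand, was higher on the TANGO siRNA and MATE2 siRNA arrays. Its signal was 76.55 on control, 94.36 on MIA siRNA, 46.21 on MIA2 siRNA (near background), 277.5 on TANGO siRNA, 218.6 on MATE2 siRNA and 44.61 on LEMD1 siRNA. The 2 high arrays stood clear of the other 4. The rise was 3.63-fold on TANGO siRNA and 2.86-fold on MATE2 siRNA, log2 ratios of 1.86 and 1.51, which placed VEGFA 141st of 12524 and 229th of 12558 genes counted from the highest. With no background correction the log2 ratio on MATE2 siRNA was 0.985, just short of 2-fold.

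On the array labelled LEMD1 siRNA VEGFA had a log2 ratio of -0.78, and on MIA2 siRNA it was lower by at least 1.66-fold, both short of the rule. With the MIA siRNA array in place of control both passed it, at -1.08 and a bound of -1.03, and with the median of the 4 other siRNA arrays the log2 ratio on LEMD1 siRNA was -1.69. A second VEGFA probe was near background on control, MIA siRNA, MIA2 siRNA and LEMD1 siRNA and good on TANGO siRNA (67.85) and MATE2 siRNA (68.93). By that probe VEGFA was higher by at least 1.71-fold and 1.74-fold on these arrays, the same direction at a size below the rule. VEGFC, the lymphatic ligand, was near background on all 6 arrays, with signals of 11.97 to 37.50, and has no ratio.

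The remaining VEGF ligands and receptors that were measured stayed within 2-fold of control. Of 7 such genes 4 or 5 were measured in each comparison, and none was called on any array. Of all genes 0.258% (MIA siRNA) to 11.7% (MATE2 siRNA) were lower and 0.391% to 5.95% higher. With so few genes measured, the absence of calls does not set them apart from all genes. VEGFB, the ligand of FLT1, gave 1782.7 to 2423.0, FLT4 452.2 to 696.9 and the co-receptor NRP2 235.9 to 365.6. KDR, the main endothelial receptor of VEGFA, was near background on all 6 arrays, as was the ligand VEGFD, and FLT1 was good on 4 arrays at 50.81 to 57.37.

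NRP1, the co-receptor shared by VEGF and semaphorin ligands, was not called on any array by its brighter probe, which gave 57.93 on control, 73.56 on MIA siRNA, 68.47 on MIA2 siRNA, 55.93 on TANGO siRNA, 43.36 on MATE2 siRNA and 67.97 on LEMD1 siRNA. The log2 ratios ran from -0.42 on MATE2 siRNA to 0.34 on MIA siRNA, and MATE2 siRNA was lowest. A second probe was the brighter of the pair on control (68.68) and MIA siRNA (80.47). It gave 56.63 on MIA2 siRNA, 39.63 on TANGO siRNA and 59.01 on LEMD1 siRNA. On MATE2 siRNA it was near background at 12.63, a fall of at least 2.19-fold, past the rule. The probes also disagreed in sign on MIA2 siRNA and LEMD1 siRNA, where log2 ratios of 0.24 and 0.23 stood against -0.28 and -0.22.

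**Figure D3:**
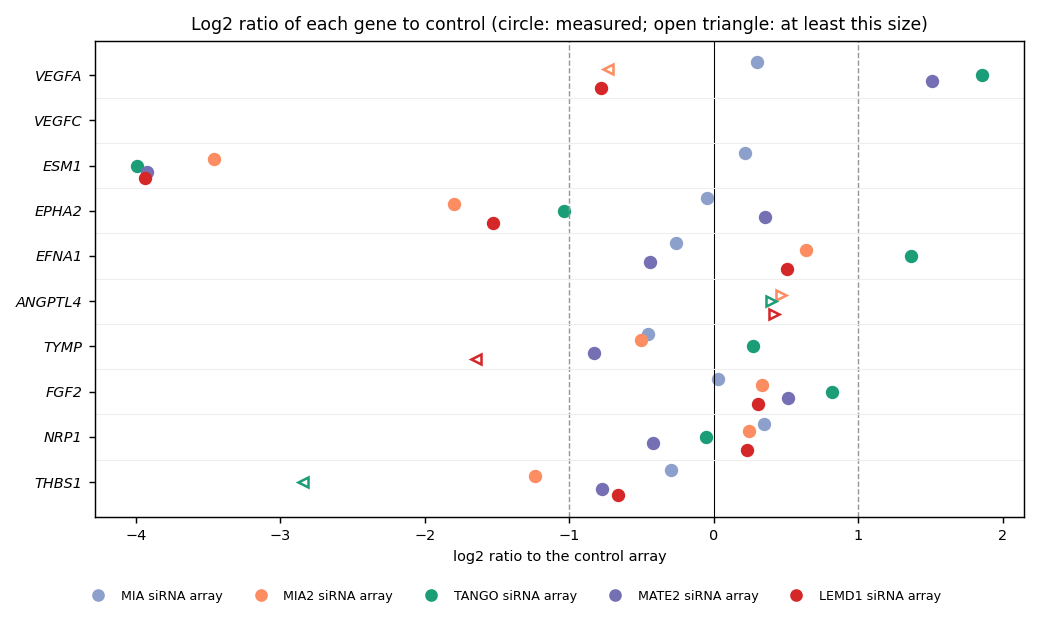
Log2 ratio of each gene to the control array on the 5 siRNA arrays. Circles are ratios of good spots, open triangles are bounds (the change is at least this size), and dashed lines mark 2-fold. ESM1 lies between -3.46 and -3.99 on 4 arrays, VEGFA at 1.86 and 1.51 on TANGO siRNA and MATE2 siRNA, and VEGFC has no point.

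FGF2, the heparin-binding fibroblast growth factor, lay above control on all 5 siRNA arrays and passed the rule on none. Its signal was 140.1 on control, 143.1 on MIA siRNA, 176.5 on MIA2 siRNA, 246.8 on TANGO siRNA, 199.8 on MATE2 siRNA and 173.6 on LEMD1 siRNA. The log2 ratios were 0.03, 0.33, 0.82, 0.51 and 0.31 in that order, so TANGO siRNA was the highest and MIA siRNA differed least from control.

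Of 11 FGF receptors, binding proteins and ligands, 7 or 8 were measured in each comparison and 2 were called, both higher on MATE2 siRNA, where 5.95% of all genes were higher. FGFBP1, a secreted carrier that releases FGF2 from the matrix, gave 2971.0 on control and 8905.4 on MATE2 siRNA, 3.00-fold higher, and had a log2 ratio of 0.94 on TANGO siRNA. The receptor FGFR1 was 396.6 on control and 1015.6 on MATE2 siRNA, 2.56-fold higher, with a log2 ratio of 0.83 on MIA2 siRNA. FGFR3 was near background on control and good on MIA2 siRNA (52.54) and LEMD1 siRNA (52.96), at least 1.54-fold and 1.55-fold higher.

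THBS1, the inhibitor among the 10 genes, was lower on the arrays labelled MIA2 siRNA and TANGO siRNA by its brightest probe. The signal was 273.2 on control, 223.2 on MIA siRNA, 116.1 on MIA2 siRNA, 38.18 on TANGO siRNA (near background), 160.2 on MATE2 siRNA and 172.3 on LEMD1 siRNA. Control was the highest of the 6 and TANGO siRNA the lowest. THBS1 was 2.35-fold lower on MIA2 siRNA, a log2 ratio of -1.24, and lower by at least 7.16-fold on TANGO siRNA. Under 9 alternative ways of processing, the value on TANGO siRNA was a log2 ratio of -1.684 to -2.865, past 2-fold in each but smaller in some. The log2 ratios on MIA siRNA, MATE2 siRNA and LEMD1 siRNA were -0.29, -0.77 and -0.67.

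The other THBS1 probes did not give the same picture on every array. A second probe gave 61.30 on control, 65.05 on MIA siRNA, 69.44 on MIA2 siRNA, 107.1 on MATE2 siRNA and 55.08 on LEMD1 siRNA, and was near background at 13.25 on TANGO siRNA, a fall of at least 1.95-fold. It was thus also low on TANGO siRNA, but its log2 ratio was 0.18 on MIA2 siRNA and 0.81 on MATE2 siRNA, of opposite sign to the brighter probe. A further probe was near background on all 6 arrays. The mean over the good probes gave -0.53 on MIA2 siRNA, which ended that call, and so did normexp (-0.95), no background correction (-0.93), 50 added to the signal (-0.96) and the MIA siRNA array in place of control (-0.94).

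Of the receptors of THBS1, CD47 stayed within 2-fold of control on all arrays by its brighter probe, at 203.5 to 400.5, while a dimmer probe was higher on TANGO siRNA with a log2 ratio of 1.04. CD36 was good on control alone, at 51.71, and near background on every siRNA array, with bounds from at least 1.29-fold lower (MIA siRNA) to at least 1.88-fold lower (LEMD1 siRNA). Of 7 receptors of thrombospondins 5 were measured in each comparison (6 on LEMD1 siRNA), and none was called by the probe taken. Of all genes 0.258% (MIA siRNA) to 11.7% (MATE2 siRNA) were lower and 0.391% to 5.95% higher. The absence of calls among so few genes does not set them apart from all genes. THBS4, another thrombospondin, was near background on control and good on TANGO siRNA (71.58) and MATE2 siRNA (99.46), at least 2.09-fold and 2.91-fold higher. Of 16 other inhibitors 6 to 9 were measured in each comparison, and those called were SEMA3B, 2.15-fold lower on TANGO siRNA, and SEMA3C, 2.93-fold higher on MATE2 siRNA, beside 9.09% and 5.95% of all genes. The probes of TIMP3, an inhibitor of metalloproteinases, disagreed: the probe taken was within 2-fold of control on every array, and another had log2 ratios of -3.22 on TANGO siRNA and -1.36 on MATE2 siRNA.

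ANGPTL4, the secreted lipase inhibitor, was dim everywhere. The spot was near background on control (32.77), MIA siRNA (21.22) and MATE2 siRNA (29.39) and good on MIA2 siRNA (47.24), TANGO siRNA (45.19) and LEMD1 siRNA (45.62). It was higher by at least 1.38-fold on MIA2 siRNA, 1.32-fold on TANGO siRNA and 1.33-fold on LEMD1 siRNA, all short of 2-fold. Of its relatives, ANGPTL2 was 65.18 on control and was 2.17-fold higher on TANGO siRNA and 2.25-fold higher on MATE2 siRNA. Of 8 listed PPAR target genes of lipid handling 4 were measured in each comparison, and FABP5 alone was called higher. FABP5, a fatty acid carrier, was 117.2 on control and was 2.56-fold higher on MIA2 siRNA, 23.1-fold on TANGO siRNA and 5.36-fold on MATE2 siRNA. Of all genes 3.29%, 5.57% and 5.95% were higher on these arrays. ACADVL was 3.67-fold lower on MATE2 siRNA, where 11.7% of all genes were lower. FABP4, near background on control, was at least 2.83-fold higher on TANGO siRNA and 3.28-fold on MATE2 siRNA.

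TYMP, which splits thymidine, had a signal of 85.89 on control, 62.62 on MIA siRNA, 60.65 on MIA2 siRNA, 103.6 on TANGO siRNA, 48.42 on MATE2 siRNA and 24.78 on LEMD1 siRNA, where the spot was near background. LEMD1 siRNA was the lowest and TANGO siRNA the highest. The fall on LEMD1 siRNA was at least 3.13-fold. With 50 added to the signal, normexp or uncorrected spot means that bound was a log2 ratio of -0.74 to -0.81, short of 2-fold. The log2 ratio was -0.46 on MIA siRNA, -0.50 on MIA2 siRNA, 0.27 on TANGO siRNA and -0.83 on MATE2 siRNA, and TYMP was 2.14-fold higher on TANGO siRNA than on MATE2 siRNA.

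Of 8 other genes of pyrimidine nucleoside metabolism, none was higher on any array. Lower were 0 of 7 measured on MIA siRNA, 2 of 6 on MIA2 siRNA, 3 of 6 on TANGO siRNA, 3 of 7 on MATE2 siRNA and 2 of 6 on LEMD1 siRNA, beside 0.258%, 5.21%, 9.09%, 11.7% and 3.98% of all genes. UPP1, the uridine phosphorylase, was 968.3 on control, 1025.2 on MIA siRNA and 220.9 to 388.5 on the other 4 arrays, 2.49-fold to 4.38-fold lower. DPYD, which degrades thymine and uracil, was 4.76-fold lower on MIA2 siRNA, 5.44-fold lower on LEMD1 siRNA and 2.32-fold lower on MATE2 siRNA. DCTD, a deaminase that supplies thymidylate synthesis, was 2.05-fold lower on TANGO siRNA and 4.26-fold lower on MATE2 siRNA.

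**Figure D4:**
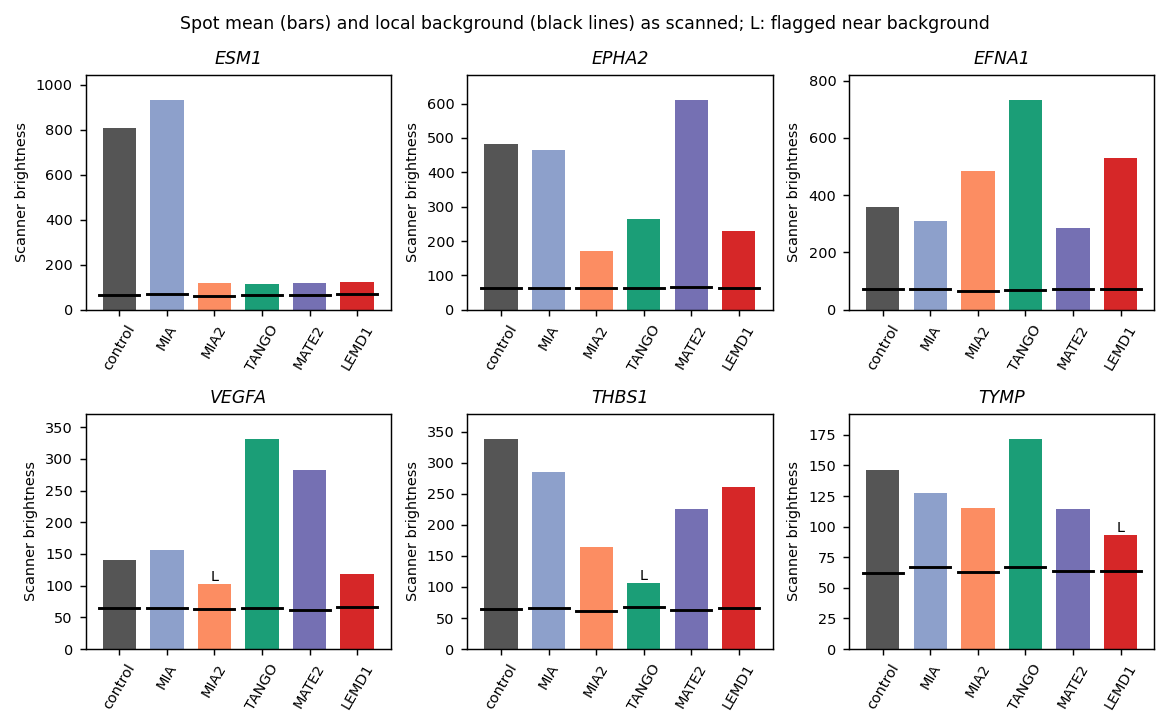
Scanner brightness of the spot (bars, from 0) and median of its local background (black lines) before normalization, on the 6 arrays, for the 6 genes with a call or a bound past 2-fold by the probe taken. L marks spots flagged near background. The ESM1 bars on the MIA2, TANGO, MATE2 and LEMD1 siRNA arrays still lie above their background lines.

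The scatter of these arrays bears on the smaller ratios. The robust SD of log2 ratios over all good probes was 0.29 on the array labelled MIA siRNA, 0.49 on MIA2 siRNA, 0.54 on TANGO siRNA, 0.52 on MATE2 siRNA and 0.38 on LEMD1 siRNA, and it holds real differences as well as noise. Where a gene had at least 2 good probes, the log2 ratios of its 2 brightest differed with a robust SD of 0.34 (MIA siRNA) to 0.73 (MATE2 siRNA). By the probe taken the log2 ratios of NRP1 were smaller in size than the first of these SDs on every array but MIA siRNA. This does not hold for the second probe (-0.79 on TANGO siRNA and at most -1.13 on MATE2 siRNA). The log2 ratios of FGF2 were smaller than these SDs on every array but TANGO siRNA.

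Other listed angiogenic genes included some that were lower on the arrays where ESM1 was low, in comparisons that share the control array. Of 25 listed 22 had a probe. Counts of lower and higher genes were 0 and 0 of 20 measured on MIA siRNA, 6 and 1 of 19 on MIA2 siRNA, 5 and 4 of 18 on TANGO siRNA, 5 and 2 of 17 on MATE2 siRNA and 5 and 0 of 19 on LEMD1 siRNA. Of all genes 0.258% and 0.391%, 5.21% and 3.29%, 9.09% and 5.57%, 11.7% and 5.95%, and 3.98% and 2.03% were lower and higher on these arrays. CCN1, a matrix protein that binds integrins, was 1304.9 on control and was 3.97-fold, 12.1-fold, 2.68-fold and 3.74-fold lower on the MIA2, TANGO, MATE2 and LEMD1 siRNA arrays. SRPX2, a secreted ligand of the urokinase receptor, was 1411.5 on control and 9.21-fold, 13.9-fold and 6.62-fold lower on MIA2, TANGO and LEMD1 siRNA, and lower by at least 44.9-fold on MATE2 siRNA.

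PLAUR, the urokinase receptor, was 4.26-fold lower on MIA2 siRNA, 4.08-fold on TANGO siRNA and 4.57-fold on LEMD1 siRNA, with a log2 ratio of 0.21 on MATE2 siRNA, so that it was low on the arrays where EPHA2 was low. PLAU, its ligand, was 2.54-fold lower on TANGO siRNA and 3.27-fold lower on MATE2 siRNA. TGFA, an EGF receptor ligand, was 3.57-fold, 2.15-fold and 3.42-fold lower on MIA2, MATE2 and LEMD1 siRNA, and MDK, a heparin-binding growth factor, was 2.18-fold lower on MIA2 siRNA and 2.49-fold lower on LEMD1 siRNA.

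Of these listed angiogenic genes, CXCL8 and JAG1 were called higher on both arrays where VEGFA was called higher. CXCL8, the neutrophil chemokine interleukin 8, was 316.9 on control, 1715.3 on TANGO siRNA and 1521.3 on MATE2 siRNA, 5.41-fold and 4.8-fold higher, and 2.08-fold lower on MIA2 siRNA. JAG1, a Notch ligand, was 7.97-fold higher on TANGO siRNA and 2.56-fold on MATE2 siRNA. PDGFC was 3.79-fold higher on TANGO siRNA but lower by at least 4.05-fold on MATE2 siRNA.

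Targets of the hypoxia-inducible factor, the class to which VEGFA belongs, were counted beside it. Of 12 listed 10 were measured in each comparison, with 0 lower and 2 higher on MIA2 siRNA, 0 and 4 on TANGO siRNA, 3 and 2 on MATE2 siRNA and 0 and 2 on LEMD1 siRNA. Of all genes 3.29%, 5.57%, 5.95% and 2.03% were higher on these arrays, and 11.7% were lower on MATE2 siRNA. EGLN3, an oxygen-sensing hydroxylase, was higher on these 4 arrays by 2.72-fold, 5.62-fold, 3.21-fold and 2.20-fold. SLC2A1, a glucose transporter, was 5.64-fold higher on TANGO siRNA and 2.58-fold on LEMD1 siRNA, and NDRG1 3.61-fold on TANGO siRNA and 2.68-fold on MATE2 siRNA. The glycolytic gene LDHA was 2.54-fold lower on MATE2 siRNA, where VEGFA was higher, with a log2 ratio of -0.52 by a dimmer probe.

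**Figure D5:**
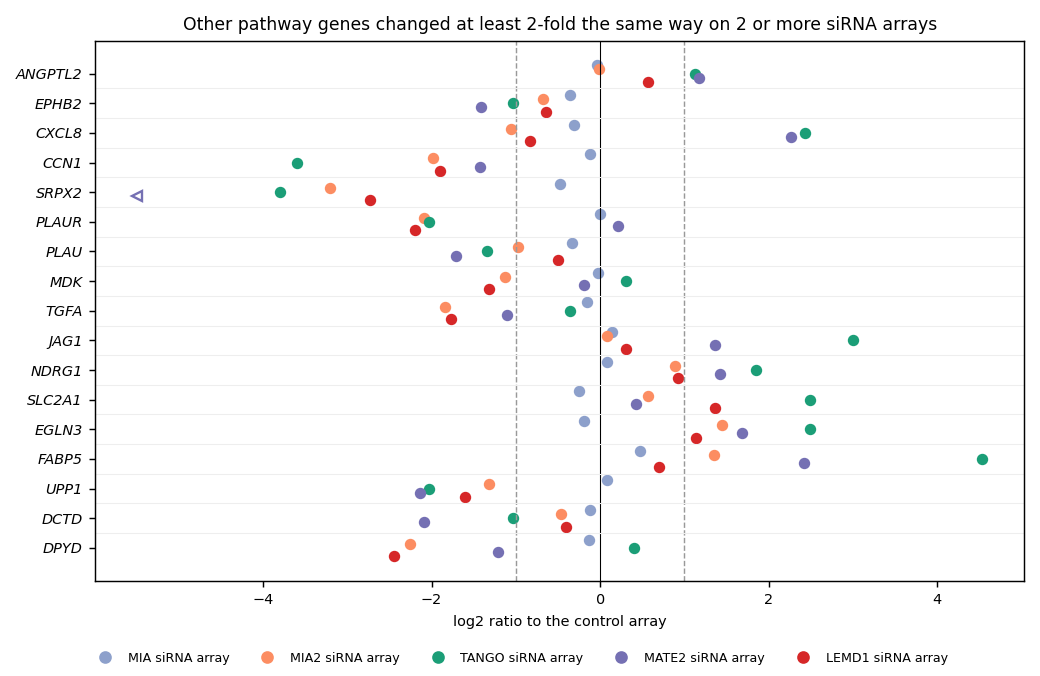
Log2 ratio to control of the pathway genes other than the 10 members that were called in the same direction on at least 2 siRNA arrays. Circles are ratios of good spots, the open triangle is a bound, and dashed lines mark 2-fold. CXCL8 lies at 2.44 and 2.26 on TANGO siRNA and MATE2 siRNA and at -1.06 on MIA2 siRNA, and CCN1 below -1 on 4 arrays.

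For the members with a good spot on all 6 arrays and a call, the genes with the most similar profile were sought by the root mean square (RMS) difference of log2 signals centred on each gene's mean over the 6 arrays, among about 5718 brighter genes. ESM1 was nearest to ETS1 (0.79), LCN2 (0.81) and BMAL2 (0.85), beside a median RMS difference of 1.87 over all genes compared. EPHA2 was nearest to PMEPA1 (0.17), MCM7 (0.19) and PIM1 (0.20), beside a median of 0.88. EFNA1 was nearest to VANGL1 (0.15), WDR73 (0.18) and BLMH (0.18), beside a median of 0.70. These are descriptions over 6 arrays. ETS1 gave 816.0 and 774.4 on the control and MIA siRNA arrays and 84.26 to 210.9 on the other 4, and PMEPA1 was, like EPHA2, lowest on LEMD1 siRNA (141.7) and MIA2 siRNA (153.8) and highest on MATE2 siRNA (675.5).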

How the data were processed

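RNA of HSC3 cells was extracted with an RNeasy Mini kit, labelled with Cy5 and hybridized to CodeLink Human Whole Genome Bioarrays, 1 per condition. Groups were taken from the labels. The deposited scanner files hold spot intensity exported by CodeLink Expression Analysis 5.0.0.31312, as the headers of the deposited files state. Raw intensity equalled spot mean less median local background within 0.0001. The authors made the deposited normalized table (intensity, linear) through quantile normalization, and quantile normalization of the raw intensities over all spots, with values below 0 set to 0, matched 100% of its values within 1% plus 1.

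Of 53423 gene probes, 320 masked on an array were left out. Raw intensity was quantile normalized over the 6 arrays, floored at 1 and set to log2. Probes were named by the platform table with RefSeq's current symbols (23311 probes) or by accession (649); 898 probes with several names and 28245 without one were left out of gene counts. A gene was represented by its probe of highest mean log2 signal, and its other probes are given beside it. Named genes are the 10 members, listed pathway genes called in 1 direction on at least 2 siRNA arrays, measured partners of members, and the 3 genes nearest in profile to a called member. Genes named beyond this rule (such as EPHB1, EPHA4, THBS4, the SEMA3 genes, PDGFC and LDHA) were picked with their values in view. The members and the gene lists were chosen with earlier results of these data known. Simulated data, with changes well past 2-fold on good spots and the scatter of the MIA siRNA array against control, were used to check the calling rule. They do not cover dim spots, changes near 2-fold or the wider scatter of the other siRNA arrays.

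With 1 array per condition, no test was run. Alternatives were 11 planned and 2 added after seeing the data (normalization with control alone, and without the array labelled MIA2 siRNA). Python 3.11.15, numpy 2.4.6, pandas 2.3.3, R 4.3.3 and limma 3.58.1 (normexp) were used.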

Additional observations from a re-analysis of the deposited data

How the results depend on the processing

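Each array scaled to its median, the deposited normalized table, the bright probes alone, the mean over good probes, and normalization with control alone, without the array labelled MIA2 siRNA or without those labelled TANGO and MATE2 siRNA kept the number of members called on every array to which they apply within 1.5 times. With the median of the 4 other siRNA arrays as comparator there were 2 higher on MIA siRNA (ESM1 and EPHA2), 1 lower on MIA2 siRNA (EPHA2) and 0 lower on TANGO siRNA. On MATE2 siRNA 2 were higher (VEGFA and EPHA2) and 1 was lower, now EFNA1 (-1.016) in place of ESM1 (-0.223). On LEMD1 siRNA 1 was lower (VEGFA, where the calls of ESM1 and EPHA2 were lost). ESM1 on MIA2 siRNA turned to 0.470, since most arrays in that median were themselves low in ESM1. On TANGO siRNA 1 member was lower, in place of 2, with normexp, no background correction, 50 added to the signal or the MIA siRNA array in place of control. With no filter on flags 4 were lower on TANGO siRNA, 2 on MATE2 siRNA and 4 on LEMD1 siRNA, as spots near background then entered. With no background correction 0 were higher on MATE2 siRNA. Of the ratios and bounds of single members under alternatives, 458 kept their direction and side of 2-fold, 19 called ones fell short of it and 7 newly passed it. The sign turned in 15, of which 14 had not been called and 11 came with the median of the 4 other siRNA arrays; the cause was not tested beyond what is said above. Calls of ESM1 on 4 arrays rest on 1 control array. Signal over background limits VEGFC, ANGPTL4, the dimmer probes and the size of the ESM1 falls. No paired analysis was possible because each condition has 1 array.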
